A study of Rattus norvegicus with 24 samples.

Results

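The results concern 5 days of rising heroin injections in rats that had no history of lipopolysaccharide (LPS). The members were the 8 nucleus accumbens RNA-seq libraries whose labels give saline pre-treatment followed by injected heroin (Saline-Heroin, n = 4) or by injected saline (Saline-Saline, n = 4), out of 24 libraries in all. All 8 came from adult male Sprague Dawley rats, 8 weeks old on arrival, that first received 5 intraperitoneal saline injections over the weeks in which other rats received LPS, a bacterial cell wall component that provokes inflammation. Saline-Heroin rats then received intraperitoneal heroin once a day for 5 days, rising from 1 mg/kg to 5 mg/kg, and Saline-Saline rats received saline over the same days. The labels place euthanasia 1 hour after the last injection, and handling and injection were common to both groups. The labels put a week between pre-treatment and heroin, the study's methods describe a shorter gap, and a short locomotor test lay between the last injection and euthanasia. The study's methods place euthanasia within 1 hour after the end of that test, so it could lie later than the labels state. The study reported that locomotion in the test differed by treatment across its injected groups. No genetic change separated the groups. The comparison asks which accumbens transcripts differ after repeated heroin alone. In the study's main comparisons the Saline-Heroin rats, like the LPS-treated rats, were set against Saline-Saline rats.

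Heroin is rapidly converted in the body to morphine and related metabolites that act at the mu opioid receptor, a receptor coupled to inhibitory G proteins that lowers cAMP and neuronal excitability. The nucleus accumbens integrates dopamine from the midbrain with glutamatergic input from cortex, hippocampus and amygdala, and most of its neurons are GABAergic medium spiny neurons of a dopamine D1 receptor class that makes dynorphin and substance P or a D2 receptor class that makes enkephalin. Immediate early genes are transcribed within minutes of synaptic activity, calcium entry or growth factor signalling, and their RNA levels are read as a record of recent activity.

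Reads assigned to genes ranged from 12312878 to 15698596 per library, and every value could be turned back into whole reads. Medium spiny neuron markers were abundant in all 8 libraries. Drd1, the D1 receptor, lay at 56.4 to 72.0 FPKM (fragments per kilobase of gene, scaled to the reads of the library) in Saline-Heroin and at 41.1 to 88.5 FPKM in Saline-Saline libraries, and Penk, which encodes enkephalin, at 355 to 429 and 266 to 626 FPKM. The labelled tissue thus held its defining neurons, but 3 libraries stood apart in genes of neighbouring tissue. Saline-Saline replicate 1 held 318 FPKM of the choroid plexus gene Ttr against at most 5.35 FPKM in the other 7 libraries. Summed levels of septal and ventral forebrain genes were 232 FPKM in Saline-Saline replicate 1 and 265 FPKM in Saline-Heroin replicate 2, against 76.8 to 170 FPKM elsewhere. Summed levels of cortical glutamatergic genes were lowest in Saline-Saline replicates 3 and 1 (367 and 370 FPKM) and in Saline-Heroin replicate 2 (416 FPKM), against 609 to 895 FPKM elsewhere. Each gene group described here was therefore also counted without Saline-Saline replicate 1 and Saline-Heroin replicate 2, and without both of these and Saline-Saline replicate 3. Not all of these counts are printed below, and those of the cortical, endothelial and oligodendrocyte lists are among the ones left out. In tissue RNA of this kind, fewer cells of a type and less RNA per cell cannot be told apart.

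**Figure D1:**
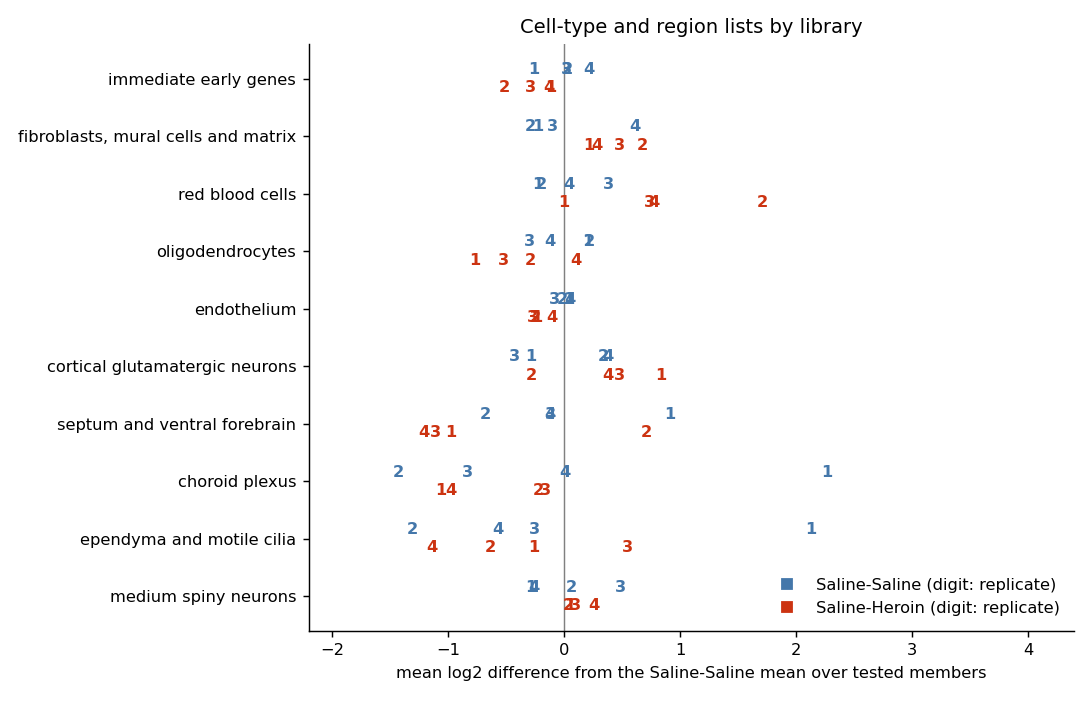
Mean log2 difference of each gene list from its Saline-Saline mean (x axis) in each of the 8 libraries, with digits giving the replicate, blue for Saline-Saline and red for Saline-Heroin. Saline-Saline replicate 1 lies far to the right for choroid plexus (2.26) and ependymal genes (2.13), and Saline-Heroin replicate 2 is the lowest library for immediate early genes (-0.51).

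Of 15143 genes with a mean of at least 0.5 FPKM, 465 (3.07%) differed at an unadjusted p of at most 0.05 and a fold of at least 1.3 in limma, with 212 higher (1.4%) and 253 lower (1.67%) after heroin. No gene passed a Benjamini-Hochberg adjusted p of 0.05 in limma, where 995 genes were under 0.05 unadjusted and adjusted values began at 0.288, nor in limma-voom on the recovered reads, where 1030 genes did so unadjusted. Every "rose" and "fell" in the text therefore refers to unadjusted limma calls, standard errors (SE) are those of limma, and single genes carry an exact two-sided permutation p over the 8 libraries, which cannot go below 0.0286. All described genes that passed these thresholds had an adjusted p of 0.75 in limma. The median log2 fold change over all tested genes was 0.00, the called genes had a median absolute log2 fold change of 0.66, and 79 of them had a mean of under 10 reads. In 514 tested genes (3.39%) the ranges of the 2 groups did not overlap. Leaving out Saline-Heroin replicate 2 raised the number of calls to 727, with 3 genes past the adjusted threshold.

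Among the 33 lists examined, the immediate early genes had the most called members, and all of these fell. Of 44 tested members, 11 fell (25.0%, against 1.67% of all tested genes called lower) and 0 rose, and the median log2 fold change was -0.24. The 11 were Egr2, Arc, Fos, Nr4a1, Dusp5, Fosl2, Junb, Egr1, Fosb, Trib1 and Egr4. They comprise zinc finger and AP-1 transcription factors, an orphan nuclear receptor, the synaptic effector Arc, the MAP kinase phosphatase Dusp5 and the pseudokinase Trib1. None of the 11 overlaps another annotated gene. The groups did not overlap in 6 of them, and 8 kept their calls whichever single library was left out.

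Egr2, a zinc finger factor (ENSRNOG00000000640, rn6 chr20:22454463-22459025, minus strand), measured 3.99, 1.12, 2.47 and 2.62 FPKM in Saline-Heroin replicates 1 to 4 and 4.48, 6.51, 14.5 and 7.48 FPKM in Saline-Saline replicates 1 to 4. The highest heroin library lay just under the lowest saline library, and Saline-Saline replicate 3 stood highest. Egr2 fell by 1.64 on the log2 scale (SE 0.42), from 8.24 ± 4.35 to 2.55 ± 1.17 FPKM (mean ± SD, n = 4 each), and the exact two-sided permutation test gave p = 0.0286, the smallest that 4 libraries against 4 allow.

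Fos, the prototype AP-1 subunit (ENSRNOG00000008015, rn6 chr6:109300433-109303299, plus strand), measured 17.7, 10.5, 15.5 and 16.9 FPKM after heroin and 24.3, 28.6, 25.3 and 39.8 FPKM after saline. No heroin library reached any saline library. Fos fell by 0.96 on the log2 scale (SE 0.20, exact permutation p = 0.0286), and the fall lay between 0.79 and 1.04 with any 1 library left out.

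Arc encodes a capsid-like protein of dendrites that governs AMPA receptor endocytosis (ENSRNOG00000043465, rn6 chr7:115907097-115910541, minus strand). It measured 26.3, 7.48, 30.1 and 26.5 FPKM after heroin and 27.5, 50.6, 49.0 and 62.2 FPKM after saline. The groups overlapped, because Saline-Saline replicate 1 sat among the heroin libraries, and Saline-Heroin replicate 2 lay far under the rest. Arc fell by 1.19 on the log2 scale (SE 0.44, exact permutation p = 0.0571), and the call held in 5 of 8 fits that left out 1 library.

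The orphan receptor Nr4a1 (rn6 chr7:142905758-142920216) measured 26.2, 14.2, 20.9 and 29.8 FPKM after heroin and 26.6, 43.2, 46.0 and 55.4 FPKM after saline. It had the same layout as Arc, with Saline-Saline replicate 1 inside the heroin range, and it fell by 0.91 on the log2 scale (SE 0.27, exact permutation p = 0.0571). Dusp5, which dephosphorylates nuclear ERK (rn6 chr1:274245184-274258595), measured 1.27, 1.42, 1.09 and 1.08 FPKM after heroin and 2.23, 1.94, 2.18 and 2.28 FPKM after saline. Its spread was narrow in both groups (SD 0.163 and 0.153 FPKM), there was no overlap, and it fell by 0.78 on the log2 scale (SE 0.17, exact permutation p = 0.0286) on 32 to 87 reads per library.

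Fosl2, another Fos family AP-1 partner (rn6 chr6:25598936-25616995), measured 9.09, 7.15, 9.42 and 6.25 FPKM after heroin and 11.4, 14.7, 12.2 and 13.7 FPKM after saline. All heroin libraries were under all saline libraries, a fall of 0.71 (log2, SE 0.15, exact permutation p = 0.0286). Among the other members Junb fell by 0.71, Egr1 by 0.60, Fosb by 0.59, Trib1 by 0.54 and Egr4 by 0.53 on the log2 scale, with exact permutation p from 0.0286 for Trib1 and Egr1 to 0.0857 for Junb and Egr4. Trib1 and Egr1 had no overlap between groups, whereas Junb, Fosb and Egr4 overlapped through Saline-Saline replicate 1. The Egr4 call held in only 3 and the Fosb call in 5 of the 8 fits that left out 1 library.

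**Figure D2:**
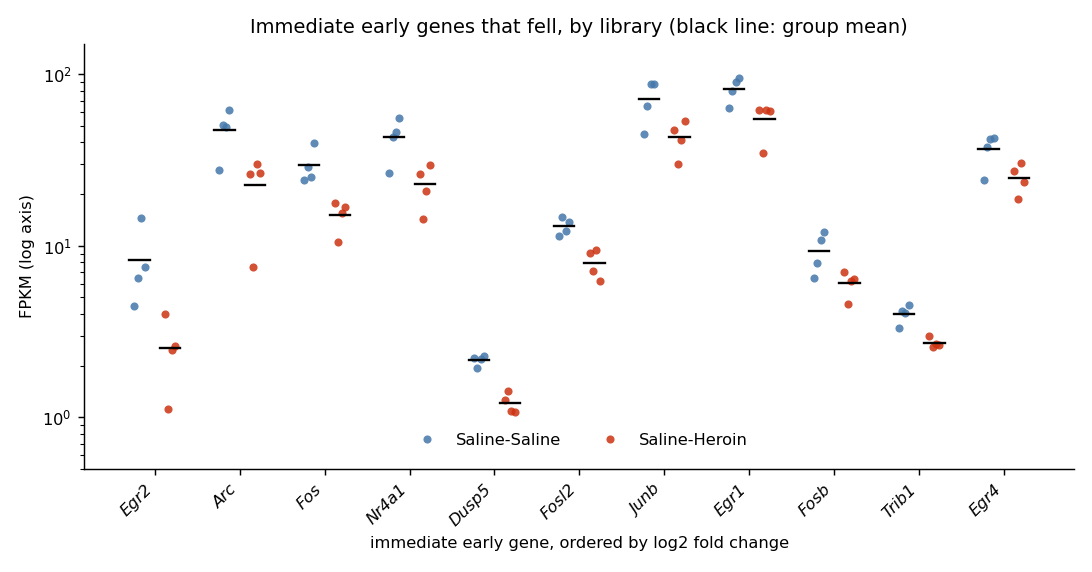
FPKM on a log axis of the 11 immediate early genes that fell (x axis) in the 4 Saline-Saline (blue) and 4 Saline-Heroin (red) libraries, with black lines for group means. The mean is lower after heroin in every gene shown, from 8.24 against 2.55 FPKM for Egr2 to 36.4 against 25.0 FPKM for Egr4.

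Other early genes did not pass the thresholds. Npas4, an activity-specific factor of neurons, stood at -0.69 (log2, SE 0.50, exact permutation p = 0.343), with 1.88 to 6.95 FPKM after heroin and 3.21 to 14.5 FPKM after saline. Nr4a3 stood at -0.56 (exact permutation p = 0.143), Dusp6 at -0.33 and Egr3 at -0.08. Homer1 stood at 0.21 and Jun at 0.22, neither past the thresholds. Bdnf, an activity-regulated neurotrophin, stood at 0.20 (SE 0.37), and 0 of 20 tested neurotrophic genes were called. That count rested on single libraries, with 5 falling without Saline-Heroin replicate 2, 1 falling without replicate 4 of that group and 1 rising without Saline-Saline replicate 4. Without Saline-Saline replicate 1 and Saline-Heroin replicate 2 together 4 neurotrophic genes fell, without Saline-Saline replicate 3 as well 3 fell, and the replicate block and the fit of all 16 libraries of injected rats each gave 2.

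Saline-Heroin replicate 2 was the lowest of the 8 libraries for 9 of the 11 genes, and Saline-Saline replicate 1 was the lowest saline library for 10 of them. These are the libraries that also stood apart in septal genes. Without both of them 13 early genes fell and 0 rose, and without Saline-Saline replicate 3 as well 12 fell and 0 rose. Leaving out single libraries gave between 8 and 16 falling genes, with 1 or 2 rising genes when Saline-Heroin replicate 2, 3 or 4 was the one left out. The 22 tested cortical genes had a median log2 fold change of 0.31, with 2 called higher and 1 called lower. The part of cortical, septal or other neighbouring tissue in the early gene levels was not tested.

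To show the sequences next to which these genes start, promoter windows of 250 bases before to 50 bases after the start were taken from RefSeq on the GRCr8 build, which differs from the rn6 build of the expression values. Windows were found for 8 of the 11 genes. They were searched on both strands for the CRE half-site TGACG (complement CGTCA), the core bound by CREB, which is contained in the palindromic full CRE, and for the CArG box bound by serum response factor, 2 elements known to drive activity-dependent transcription. A half-site lay in 6 of the 8 windows, against 21.2% of 33469 RefSeq windows of this length. A CArG box lay in 3 of the 8, against 1.64%, and the full CRE in 0 of the 8, against 1.83%. The windows of 4 genes that fell are shown because they hold these elements singly or together, with capitals marking half-sites and CArG boxes.
Egr2 (chr20:21054392-21054691, minus strand): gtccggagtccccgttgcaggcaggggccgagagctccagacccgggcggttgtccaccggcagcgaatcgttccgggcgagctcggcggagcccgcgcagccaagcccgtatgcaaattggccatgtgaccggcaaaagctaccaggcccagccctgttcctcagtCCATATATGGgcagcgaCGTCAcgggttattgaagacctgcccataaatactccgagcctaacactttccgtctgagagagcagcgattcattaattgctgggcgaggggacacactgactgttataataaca
Nr4a1 (chr7:134259888-134260187, plus strand): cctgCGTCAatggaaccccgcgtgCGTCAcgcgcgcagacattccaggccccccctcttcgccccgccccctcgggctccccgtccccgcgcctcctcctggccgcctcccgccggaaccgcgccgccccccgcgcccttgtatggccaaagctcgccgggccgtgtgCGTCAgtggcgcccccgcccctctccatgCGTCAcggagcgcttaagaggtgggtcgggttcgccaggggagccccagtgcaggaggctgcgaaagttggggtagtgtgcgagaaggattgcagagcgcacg
Dusp5 (chr1:262543524-262543823, plus strand): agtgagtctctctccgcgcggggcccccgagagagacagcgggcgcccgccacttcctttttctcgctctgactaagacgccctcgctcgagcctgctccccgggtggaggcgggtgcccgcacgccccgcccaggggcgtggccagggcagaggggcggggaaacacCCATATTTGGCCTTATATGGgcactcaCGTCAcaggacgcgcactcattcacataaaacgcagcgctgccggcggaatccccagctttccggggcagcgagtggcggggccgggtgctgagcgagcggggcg
Egr4 (chr4:119607768-119608067, minus strand): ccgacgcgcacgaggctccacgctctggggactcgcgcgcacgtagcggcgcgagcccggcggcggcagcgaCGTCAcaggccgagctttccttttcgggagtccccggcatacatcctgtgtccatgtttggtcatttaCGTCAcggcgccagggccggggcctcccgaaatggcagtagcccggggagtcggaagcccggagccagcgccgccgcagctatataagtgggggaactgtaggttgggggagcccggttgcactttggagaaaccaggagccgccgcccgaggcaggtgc
The Egr2 window holds 1 CArG box, which begins 83 bases before the start, and 1 half-site 66 bases before it. The Dusp5 window holds 2 adjoining CArG boxes (82 and 72 bases before the start) followed by 1 half-site at 55 bases. Nr4a1 has 4 half-sites and Egr4 has 2, without a CArG box in these windows. A match is a description of letters and does not show that a factor was bound in these animals. Early genes that did not fall were not searched, so these shares do not set the genes that fell apart from other early genes.

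The same genes could be read in other rats that share no library with this comparison. In LPS-Heroin against LPS-Saline rats, which received the same injections after LPS in place of saline (n = 4 each), 345 of 15069 tested genes were called (2.29%), with 172 higher (1.14%) and 173 lower (1.15%). All 11 early genes were below 0 there, and 10 of them were called lower. In Heroin-SA against Saline-SA rats, which took intravenous heroin or saline themselves in 10 daily sessions and were killed directly after the last (n = 4 each), 819 of 15024 genes were called (5.45%), with 457 higher (3.04%) and 362 lower (2.41%). There, 10 of the 11 were below 0 and 8 were called lower. Fos stood at -0.96 in the LPS pair and -0.64 in the self-administration pair, Egr2 at -1.31 and -1.26, and Arc at -1.30 and -0.55. Trib1 was the member that stood on the other side of 0 in self-administration (0.13).

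A single heroin library of the LPS pair lay at saline level. Fos measured 40.3, 17.4, 13.3 and 16.8 FPKM in LPS-Heroin replicates 1 to 4 and 39.9, 34.6, 30.7 and 53.5 FPKM in LPS-Saline replicates, so that LPS-Heroin replicate 1 lay within the saline range. Egr2 did the same, at 11.7 FPKM in that library against 2.04 to 4.01 FPKM in the other 3. Without it all 11 early genes were called lower in the LPS pair, and dropping other single libraries there left between 4 and 7. In self-administration dropping single libraries left between 3, without Heroin-SA replicate 4, and 9. For the difference of the heroin effect with and without LPS history, limma's interaction term gave no unadjusted p below 0.46 among the 11, with differences of at most 0.34 (log2) in size.

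**Figure D3:**
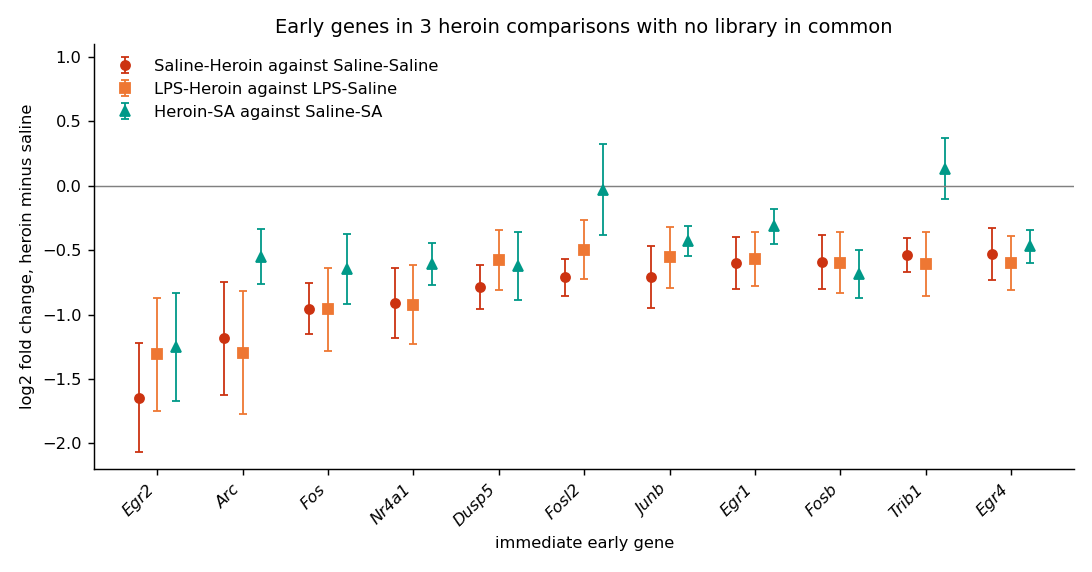
Log2 fold change, heroin minus saline, with limma standard errors (bars) for the 11 immediate early genes in 3 comparisons that share no library. In the injected rats without LPS all 11 points lie below 0, from -1.64 for Egr2 to -0.53 for Egr4, and in self-administration Trib1 lies above 0.

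Among the opioid system's own transcripts 1 of 12 tested peptide and receptor genes fell (against 1.67% of all tested genes called lower) and 0 rose, with a median log2 fold change of 0.00. Oprm1, the mu receptor at which heroin acts, was scarce in this tissue, at 0.650, 0.908, 0.686 and 0.723 FPKM after heroin and 0.902, 0.560, 0.851 and 0.681 FPKM after saline. The ranges overlap throughout, and the log2 fold change was -0.00 (SE 0.28) on 45 to 77 reads per library, with 4 other annotated genes overlapping its span. Oprk1, the dynorphin receptor, stood at 0.28 (SE 0.15, exact permutation p = 0.2) and Oprd1, the enkephalin receptor, at 0.39 (SE 0.35, exact permutation p = 0.457). Penk stood at 0.01 (SE 0.23) and Pdyn, the dynorphin precursor, at 0.05 (SE 0.21). The member that fell was Pomc, the beta-endorphin precursor, at 1.85, 1.51, 1.60 and 0.876 FPKM after heroin and 2, 2.54, 2.24 and 2.26 FPKM after saline. The groups did not overlap, and Pomc fell by 0.64 (log2, SE 0.23, exact permutation p = 0.0286), but on only 12 to 43 reads per library. The call was lost without Saline-Saline replicate 2 and without the 3 libraries that stood apart, and 1 opioid gene rose without Saline-Saline replicate 3.

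Markers of medium spiny neurons were not called in either direction. None of 28 tested members passed, although 25 lay above 0 with a median of 0.16. Drd1 stood at 0.16 (SE 0.22), Drd2 at 0.08 (SE 0.20), Tac1 at 0.22 (SE 0.21) and the phosphatase regulator Ppp1r1b at 0.15 (SE 0.22). The saline group was the wider one, since Saline-Saline replicate 3 was highest and replicates 1 and 4 lowest for Drd1 and Ppp1r1b. Without Saline-Saline replicate 3 the list median was 0.31 and 4 members rose, and without Saline-Saline replicate 1 or 4 the median was 0.04 with 0 calls. Dropping Saline-Heroin replicate 4 gave a median of 0.08 and 0 calls, and dropping its replicate 2 gave 1 falling member. Without the 3 libraries that stood apart 1 member rose.

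The cAMP and G protein signalling list gave 0 calls among 46 tested members, and the GABA list 0 among 19. In the cAMP list 3 rose without Saline-Saline replicate 3, and 2 rose and 1 fell without Saline-Heroin replicate 2 or Saline-Saline replicate 4. It had 1 rising member without Saline-Heroin replicate 1, 1 falling member without Saline-Saline replicate 1, and 1 of each in both fits without the libraries that stood apart. In the GABA list 1 rose and 2 fell without Saline-Heroin replicate 2, 1 rose and 1 fell without its replicate 4, and 1 rose without Saline-Saline replicate 1 or 4. It gave 2 falling members without Saline-Saline replicate 1 and Saline-Heroin replicate 2, and 2 rising and 1 falling without Saline-Saline replicate 3 as well.

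Genes of the postsynaptic density and of voltage-gated channels lay above 0 more often than not, where 50.6% of all tested genes did. Of 29 scaffold and CaMKII genes 3 rose (10.3%, against 1.4% of all tested genes) and 0 fell, with a median of 0.19 and 25 above 0. Camk2a, the alpha subunit of the calcium/calmodulin kinase of synapses, measured 368, 265, 372 and 320 FPKM after heroin and 234, 232, 267 and 255 FPKM after saline. Only Saline-Heroin replicate 2 lay inside the saline range, and Camk2a rose by 0.41 (log2, SE 0.11, exact permutation p = 0.0571). Arhgap32, a GTPase-activating protein bound to the NMDA receptor complex, measured 50.8, 41.9, 53.5 and 52.2 FPKM after heroin and 33.5, 36.2, 41.5 and 38.6 FPKM after saline. Its groups did not overlap, and it rose by 0.40 (SE 0.10, exact permutation p = 0.0286). Tiam1, which activates Rac in dendritic spines, rose by 0.42 (SE 0.12, exact permutation p = 0.0286) with no overlap.

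The scaffold count depended on single libraries, from 0 without Saline-Heroin replicate 3 to 6 when Saline-Heroin replicate 2 or Saline-Saline replicate 3 was dropped, with 1 for Saline-Heroin replicate 4 and 5 for Saline-Saline replicate 4. Without Saline-Saline replicate 1 and Saline-Heroin replicate 2 together 5 scaffold genes rose, and without Saline-Saline replicate 3 as well 7 rose. Of 49 tested channel genes 4 rose (among them Kcnh3, Kcnh1 and Cacna2d1, by 0.49, 0.43 and 0.40) and 1, Cacna2d2, fell by 0.50. Among all tested genes 1.4% were called higher and 1.67% lower. The Kcnh genes encode ether-à-go-go potassium channels. Without Saline-Saline replicate 1 and Saline-Heroin replicate 2, 5 channel genes rose and 2 fell. Without Saline-Saline replicate 3 as well 7 rose and 2 fell. Dropping single libraries gave 0 channel calls for Saline-Heroin replicate 3, 1 for Saline-Heroin replicates 1 and 4, 2 for Saline-Saline replicate 1, 3 for Saline-Saline replicates 2 and 4, and 9 for Saline-Heroin replicate 2. Among 25 glutamate receptor genes Grin2a rose by 0.66 and Grin2d fell by 0.73, while the obligatory NMDA subunit Grin1 stood at 0.05 (SE 0.06). Both receptor calls were lost without Saline-Heroin replicate 1 and again without replicate 3. Receptor genes numbered 2 rising and 2 falling without Saline-Heroin replicate 2, and 2 rising and 1 falling without Saline-Heroin replicate 4 or Saline-Saline replicate 4. Without Saline-Saline replicate 1 and Saline-Heroin replicate 2 together 3 rose and 1 fell, and without Saline-Saline replicate 3 as well 4 rose and 1 fell.

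Cortical genes were measured beside these because many of the same transcripts are abundant in cortical neurons. Of 22 tested cortical members 2 rose (Slc30a3 by 1.27 and Mef2c by 0.72) and 1, Nxph4, fell by 0.63. Over all tested genes 1.4% were called higher and 1.67% lower. Slc30a3, the synaptic zinc transporter of glutamatergic terminals, measured 30.6, 13, 27.4 and 31.0 FPKM after heroin and 8.37, 8.90, 5.91 and 22.1 FPKM after saline. Saline-Saline replicate 4 lay within the heroin range, and Saline-Heroin replicate 2 lay between it and the other saline libraries. When Saline-Heroin replicate 2 was dropped, 7 cortical genes rose and 0 fell, and when Saline-Saline replicate 4 was dropped, 4 rose and 1 fell. Slc17a7, the vesicular glutamate transporter of cortical neurons, ranged from 128 to 356 FPKM after heroin and from 73.8 to 227 FPKM after saline (0.80, SE 0.43, exact permutation p = 0.171). Summed cortical gene levels spanned 416 to 895 FPKM after heroin and 367 to 618 FPKM after saline. Their part in the scaffold, channel and receptor values was not tested.

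**Figure D4:**
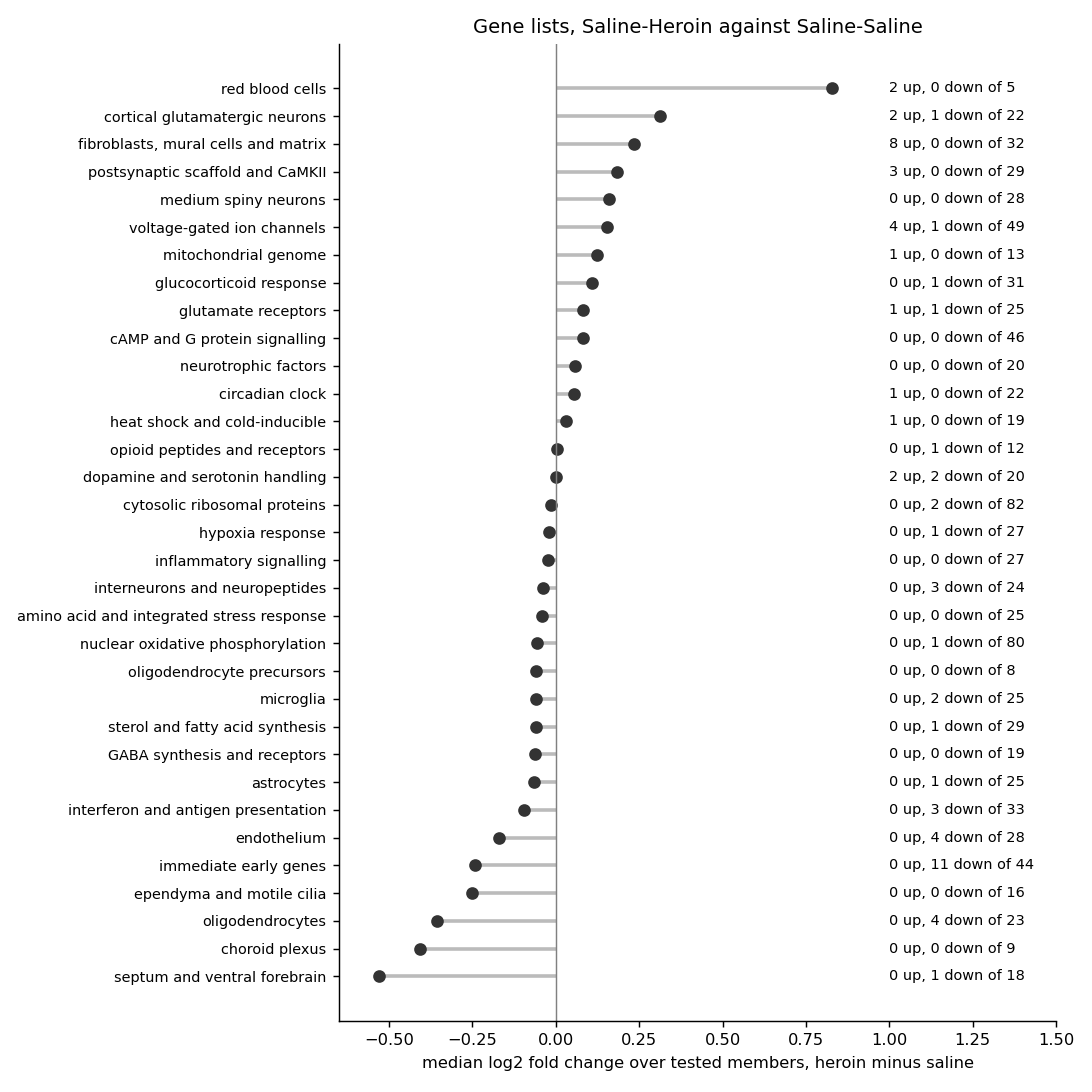
Median log2 fold change over the tested members of 33 gene lists (x axis), heroin minus saline, with the number of members past the unadjusted thresholds printed at the right. The immediate early genes have the most falling members (11 of 44) and the fibroblast, mural cell and matrix genes the most rising members (8 of 32).

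Extracellular matrix and contractile genes were the group with the most rising members. Of 32 tested fibroblast, mural cell and matrix genes 8 rose (25.0%, against 1.4% of all tested genes) and 0 fell, with a median of 0.23. The summed level of the list did not follow these counts, at 445, 749.8, 453 and 461 FPKM after heroin and 581, 555, 553 and 556 FPKM after saline, so that 3 of 4 heroin libraries lay below every saline library. Most of that sum was Sparc, a secreted matrix glycoprotein that other brain cells make too, which stood at -0.40 (log2, SE 0.20, exact permutation p = 0.143) and was not called. Fn1, which encodes the matrix glycoprotein fibronectin (rn6 chr9:78900103-78969078), measured 8.34, 6.95, 5.65 and 8.79 FPKM after heroin and 4.39, 3.57, 3.41 and 5.08 FPKM after saline. Every heroin library was above every saline library, and Fn1 rose by 0.84 (log2, SE 0.18, exact permutation p = 0.0286), from 4.11 ± 0.777 to 7.43 ± 1.42 FPKM. Its call held in all 8 fits that left out a library, although an opposite-strand gene overlaps its span. The strand setting of the counting was not given in the sources used here, so reads of overlapping genes could be shared. This touches Fn1, Tagln, Arhgap32, Camk2a, Elfn1, Hbb-b1, Irf7, Kcnh3, Lhx6, Mt-nd6, RT1-S3, RT1-T24-4, Sox10, Sqrdl and Srebf1 among the called genes described.

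The TGF-beta co-receptor Tgfbr3 rose by 0.43 (SE 0.13, exact permutation p = 0.0286), also without overlap. The proteoglycan Bgn measured 9.61, 15.9, 18.0 and 19.0 FPKM after heroin and 6.12, 6.83, 7.01 and 14.0 FPKM after saline, a rise of 0.91 (SE 0.29). The collagens Col1a1, Col5a1 and Col6a1 rose by 1.20, 0.64 and 0.42, each with overlap between groups. Saline-Saline replicate 4 was the saline library that reached into the heroin range for Bgn and the collagens.

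The smooth muscle genes were the most uneven. Acta2, smooth muscle actin, measured 16.5, 32.1, 6.89 and 9.44 FPKM after heroin and 2.95, 3.94, 4.94 and 12.7 FPKM after saline, and Tagln, transgelin, 28.0, 60.1, 16.2 and 18.7 against 7.33, 8.95, 7.08 and 24.9 FPKM. Saline-Heroin replicate 2 was highest and Saline-Saline replicate 4 stood above the other saline libraries for both. Acta2 rose by 1.37 (SE 0.55, exact permutation p = 0.0857) and Tagln by 1.35 (SE 0.50, exact permutation p = 0.0857). The fibrillar collagen Col3a1 (1.22, SE 0.68) and smooth muscle myosin Myh11 (0.84, SE 0.38) did not pass.

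Dropping Saline-Saline replicate 4 gave 13 rising matrix genes, dropping Saline-Heroin replicate 2 gave 5, and dropping Saline-Saline replicate 1, 2 or 3 gave 3, with 1 falling gene when Saline-Heroin replicate 2 or Saline-Saline replicate 2 was dropped. Without Saline-Saline replicate 1 and Saline-Heroin replicate 2 together 4 rose and 1 fell, and without Saline-Saline replicate 3 as well 1 rose and 1 fell. In the other rats the list had 0 rising members in either heroin comparison, and 0 and 2 falling members. Fn1 stood at 0.68 in the LPS pair and 0.09 in the self-administration pair. Acta2 stood at -0.33 and -0.15 there.

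Red blood cell genes were highest in the library that was also highest in contractile genes. Of 5 tested red blood cell genes 2 rose, where 1.4% of all tested genes were called higher. They were the globins Hba1 (0.83, SE 0.35, exact permutation p = 0.0571) and Hbb-b1 (0.88, SE 0.29, exact permutation p = 0.0857). Hba1 measured 253, 940, 462 and 390 FPKM after heroin and 219, 242, 337 and 240 FPKM after saline, with Saline-Heroin replicate 2 highest. Near-identical globin copies can exchange reads, so single globins are uncertain. The summed red blood cell level was 447 to 1744 FPKM after heroin and 408 to 598 FPKM after saline, and its part in the matrix result was not tested. No red blood cell gene was called without Saline-Saline replicate 1 and Saline-Heroin replicate 2.

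Some endothelial genes fell. Of 28 tested members 4 fell (14.3%, against 1.67% of all tested genes) and 0 rose, with a median of -0.17. Sox18, a transcription factor of the endothelium (rn6 chr3:177177310-177179127), measured 2.49, 2.72, 2.06 and 2.89 FPKM after heroin and 3.99, 5.21, 3.61 and 4.67 FPKM after saline. Its groups did not overlap, and it fell by 0.76 (log2, SE 0.16, exact permutation p = 0.0286). Car4, the carbonic anhydrase of capillary endothelium, fell by 0.78 (SE 0.20), and Slco1c1, the thyroxine transporter of the blood-brain barrier, by 0.39 (SE 0.09), both without overlap, whereas Lef1 fell by 0.62 with overlap. Cldn5, the tight junction protein of the barrier, stood at -0.03 (SE 0.09) and did not pass. When Saline-Heroin replicate 4 was dropped the count was 8, and it was 2 when replicate 1 or 2 of either group was dropped.

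Oligodendrocyte genes were lower in every tested member. All 23 had a log2 fold change below 0, whereas 50.6% of all tested genes lay above 0. The median was -0.35, and 4 fell (17.4%, against 1.67% of all tested genes) while 0 rose. Sox10, the lineage transcription factor, measured 21.9, 26.7, 25.2 and 38.1 FPKM after heroin and 40.5, 49.3, 33.5 and 41.5 FPKM after saline. Saline-Heroin replicate 4 lay within the saline range and the other 3 heroin libraries lay below it, and Sox10 fell by 0.58 (log2, SE 0.17, exact permutation p = 0.0571). The connexin Gjb1, which couples myelinating cells, fell by 0.61, and Opalin, a myelin membrane glycoprotein, by 0.55.

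Other myelin genes did not pass the thresholds. Mbp, myelin basic protein, stood at -0.50 (SE 0.24, exact permutation p = 0.114) and Mog at -0.30 (SE 0.20, exact permutation p = 0.343). The summed oligodendrocyte level was 3969.9 FPKM in Saline-Heroin replicate 1 and 7744 FPKM in replicate 4, a range that took in the lower part of the saline range of 5594 to 8612 FPKM. Leaving out Saline-Heroin replicate 4 raised the count to 18 falling members, leaving out Saline-Saline replicate 3 raised it to 9, and leaving out Saline-Heroin replicate 1 or 3 or Saline-Saline replicate 1 or 2 lowered it to 1. The list median was 0.05 in the LPS pair and -0.06 in the self-administration pair, with 0 members called in either.

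In the inflammatory signalling list 0 of 27 tested members passed, out of 42 genes listed and measured. Without the filter on low values 1 of 40 rose and 1 fell. Limma-voom and the fit of all 16 libraries each gave 1 falling member, and 1 rose without Saline-Heroin replicate 1. In the interferon and antigen presentation list 3 of 33 fell and 0 rose, where 1.67% of all tested genes were called lower. RT1-T24-4, a class I histocompatibility gene (rn6 chr20:3189473-3197457), measured 1.76, 1.76, 1.05 and 1.69 FPKM after heroin and 6.86, 3.79, 4.96 and 2.66 FPKM after saline. There was no overlap, and RT1-T24-4 fell by 1.43 (log2, SE 0.29, exact permutation p = 0.0286) and stood at -1.09 in the LPS pair, where it was also called. RT1 genes share sequence with one another and vary between outbred rats, so reads could be split among copies. RT1-S3 fell by 0.67 (SE 0.18) and the interferon regulator Irf7 by 0.80 (SE 0.34). Of 25 microglial genes 2 fell, the lineage factor Spi1 by 0.69 (SE 0.20) and the fractalkine receptor Cx3cr1 by 0.55 (SE 0.21), while P2ry12 stood at 0.07 (SE 0.27) and Aif1 at -0.27 (SE 0.18). Neither Spi1 nor Cx3cr1 lay below 0 in the LPS pair, where 5 of 25 microglial genes were called lower (against 1.15% of all tested genes). In self-administration 1 of these 2 genes lay below 0, and 0 microglial genes were called. Without the 3 libraries that stood apart 1 interferon gene rose, 1 fell and no microglial gene was called, and leaving out single libraries gave 2 to 4 falling interferon genes and 1 or 2 falling microglial genes.

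Monoamine genes split. Of 20 tested members 2 rose and 2 fell, where 1.4% of all tested genes were called higher and 1.67% lower. Without Saline-Saline replicate 1 and Saline-Heroin replicate 2 together, 1 of 19 tested members rose and 2 fell. Without Saline-Saline replicate 3 as well 0 rose and 2 fell. Ddc, aromatic amino acid decarboxylase, measured 1.27, 1.42, 0.941 and 1.44 FPKM after heroin and 2.07, 2.35, 2.03 and 2.49 FPKM after saline. No heroin library reached the saline range, and Ddc fell by 0.78 (log2, SE 0.19, exact permutation p = 0.0286). Qdpr, which regenerates the tetrahydrobiopterin cofactor, fell by 0.43 (SE 0.12, exact permutation p = 0.0286). The serotonin receptor Htr2a rose by 0.54 and the retinaldehyde dehydrogenase Aldh1a1 by 0.84. Th, tyrosine hydroxylase, lay near 1 FPKM in both groups (-0.13, SE 0.36).

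Interneuron genes had 3 falling and 0 rising members among 24, where 1.67% of all tested genes were called lower. They were Lhx6 (a fall of 0.68, SE 0.27), a factor of interneurons born in the medial ganglionic eminence, the neuropeptide Nts (0.61, SE 0.23) and Elfn1 (0.50, SE 0.19). The count was 0 when Saline-Heroin replicate 1 or 3 was dropped, 6 when replicate 2 was, and 8 when that library and Saline-Saline replicate 1 both were. Among 18 septal and ventral forebrain genes Gbx1 fell by 1.67 (SE 0.50), and the list median was -0.53. Without Saline-Heroin replicate 2, 1 of the libraries highest in these genes, 7 septal genes fell and the median was -0.99, and 6 fell in both fits that left out the libraries standing apart. Without Saline-Saline replicate 1 or 2, 2 septal genes fell, with medians of -0.32 and -0.93. The part of neighbouring tissue in the interneuron values was not tested.

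Metabolic and stress lists held single calls, where 3.07% of all tested genes were called in either direction. The shares called were 3.45% of sterol and fatty acid, 3.23% of glucocorticoid response, 4.55% of clock and 5.26% of heat shock and cold-inducible genes. Single calls at such shares do not set these lists apart. Srebf1, the regulator of fatty acid synthesis, measured 15.5, 18.5, 15.4 and 17.5 FPKM after heroin and 25.5, 21.6, 21.8 and 21.2 FPKM after saline. The groups did not overlap, and Srebf1 fell by 0.43 (log2, SE 0.09, exact permutation p = 0.0286). It was the 1 call among 29 sterol and fatty acid genes, and it was lost without Saline-Saline replicate 1, the highest saline library. Of 31 glucocorticoid response genes Angptl4 fell by 0.73 (SE 0.23) and 0 were called higher, with Fkbp5 at 0.22 (SE 0.13, exact permutation p = 0.171) and Sgk1 at 0.03 (SE 0.31). Without Saline-Heroin replicate 4, however, 4 glucocorticoid response genes rose and the list median went from 0.11 to 0.17, and 1 rose without Saline-Saline replicate 1, under the replicate block, quantile normalization or limma-voom and in the fit of all 16 libraries. Without the 3 libraries that stood apart 1 rose and the Angptl4 call was lost. Usp2, a ubiquitin protease tied to the circadian clock, rose by 0.41 (SE 0.10, exact permutation p = 0.0286) without overlap, the 1 call among 22 clock genes. The Usp2 call was lost without Saline-Heroin replicate 1. The small heat shock protein Hspb1, the 1 call among 19 heat shock and cold-inducible genes, rose by 0.68 (SE 0.27) and was highest in Saline-Heroin replicate 3, at 15.7 FPKM. The Hspb1 call held in only 4 of 8 fits that left out 1 library, being lost without Saline-Heroin replicate 3 or Saline-Saline replicate 1, 2 or 3, and also in the fit of all 16 libraries.

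The creatine synthesis enzyme Gatm, 1 of 25 astrocyte genes, fell by 0.38 (SE 0.10, exact permutation p = 0.0286). It was the only astrocyte call (4%, against 3.07% of all tested genes called in either direction). Of 80 nuclear oxidative phosphorylation genes only Cox5b was called (1.25%, against 1.67% of all tested genes called lower). Cox5b fell, at 337, 247, 301 and 279 FPKM after heroin and 367, 376, 413 and 423 FPKM after saline (0.45, SE 0.10, exact permutation p = 0.0286). It stood at 0.25 in the LPS pair and at -0.03 in the self-administration pair. All 13 genes of the mitochondrial genome were above 0, with a median of 0.12, and Mt-nd6 alone rose, by 0.43 (SE 0.12). The groups overlapped in the list's mean log2 difference from Saline-Saline, at 0.02 to 0.29 in Saline-Heroin and -0.19 to 0.17 in Saline-Saline libraries. In the LPS pair 7 of 13 were above 0 (median 0.01), and in self-administration 1 of 13 was (median -0.21). Among 82 ribosomal protein genes 2 rows of Rps29 fell (2.44%) on a mean of 3 and 12 reads per library, which is too few to describe. No member was called in the lists of the integrated stress response (25 tested), oligodendrocyte precursors (8), choroid plexus (9) or ependyma (16). The hypoxia list of 27 held only Angptl4 (3.7%).

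Of the 465 called genes, 294 had a mean of at least 50 reads, 260 of these carried a symbol that is no placeholder, and 72 of those had groups without overlap, 27 higher and 45 lower after heroin. Outside the lists, the rising gene with the smallest p was Gpr26, an orphan G protein-coupled receptor of the brain (rn6 chr1:203971152-203988709). It measured 11.7, 12.4, 13.9 and 13.6 FPKM after heroin and 8.21, 8.28, 9.41 and 9.88 FPKM after saline. The highest saline library was under the lowest heroin library, and Gpr26 rose by 0.52 (log2, SE 0.09). Called genes outside the lists were named only where the groups did not overlap. That choice fixes their exact permutation p at its smallest value, 0.0286, so this p is no separate test of them. Gpr26 was chosen in this way. It was called higher in self-administration too (0.79) and stood at 0.30 in the LPS pair.

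Fam107a, an actin-binding protein induced by stress hormones, measured 121, 119, 116 and 111 FPKM after heroin and 102, 79.7, 93.9 and 83.7 FPKM after saline. The heroin libraries lay close together above the saline range, and Fam107a rose by 0.38 (SE 0.08), with 0.48 in self-administration (called) and 0.31 in the LPS pair. Ankrd33b rose by 0.77 and was called in self-administration (0.41). Mustn1 rose by 0.94, the bone morphogenetic protein antagonist Grem1 by 1.19, the secreted protein Fibin by 0.60, the ephrin receptor Epha6 by 0.50 and the RhoA exchange factor Arhgef25 by 0.39.

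Of the falling genes outside the lists, Tm2d3 had the smallest p. It measured 5.18, 5.33, 5.46 and 5.58 FPKM after heroin and 6.90, 6.91, 7.35 and 7.66 FPKM after saline. The groups were tight and apart, and Tm2d3 fell by 0.41 (log2, SE 0.08), whereas it was called higher in self-administration (0.82). Fam89a fell by 0.61 (SE 0.12), Sqrdl, a mitochondrial sulfide oxidase, by 0.78 (SE 0.17), and Mrps10, a mitochondrial ribosome subunit, by 0.46 (SE 0.10).

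**Figure D5:**
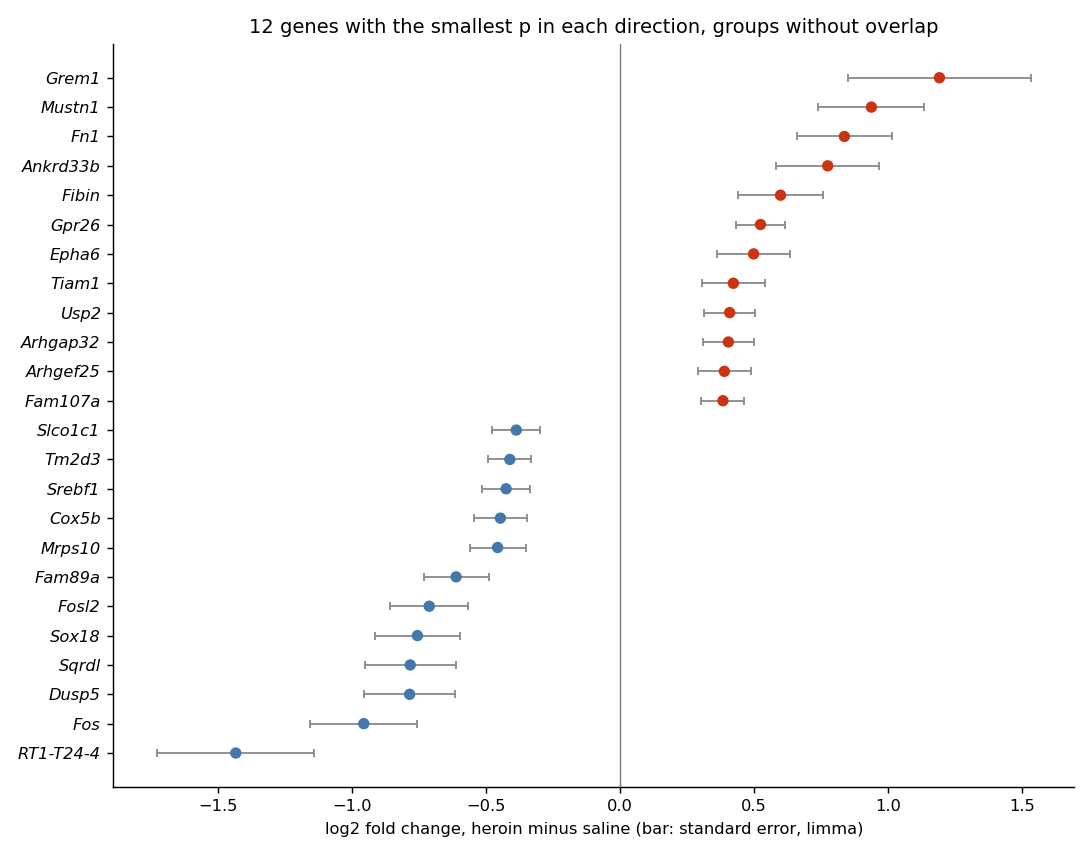
Log2 fold change, heroin minus saline, with limma standard errors (bars) for the 12 genes of smallest p in each direction among named genes with at least 50 reads and groups without overlap, red for higher and blue for lower after heroin. Rising genes reach 1.19 for Grem1 and falling genes -1.43 for RT1-T24-4.

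Directions of the called genes were then counted in the rats that share no library. Of 448 called genes also tested in the LPS pair, 305 (68.1%) had the same direction there, against 54.4% of 14802 genes tested in both. Of the 448, 30 (6.7%) were called in the same and 8 in the opposite direction. Among the 14802 these counts were 213 (1.44%) and 114. Of 447 tested in the self-administration pair, 284 (63.5%) had the same direction, against 58.4% of 14658. Of the 447, 48 (10.7%) were called in the same and 12 in the opposite direction, where the counts among the 14658 were 538 (3.67%) and 258. Among the 72 genes with 50 reads, a symbol and groups apart, 56 (77.8%) had the same direction in the LPS pair, where 8 were called the same way and 0 the opposite way. Of the 71 tested in self-administration 48 (67.6%) had the same direction, with 10 called the same and 2 the opposite way. No test was attached to these shares, and no share was counted over all genes with at least 50 reads.

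The heroin effects of single genes with and without LPS history were compared by the interaction term of limma over the 16 injection libraries. No gene had an adjusted p under 0.05 among 15113 tested, where 607 had an unadjusted p under 0.05. Among described genes with a mean of at least 50 reads, the smallest unadjusted interaction p values belonged to Epha6 (0.50 here and -0.26 after LPS), Arhgap32 (0.40 and 0.01), Tgfbr3 (0.43 and -0.16), Srebf1 (-0.43 and -0.01) and Cox5b (-0.45 and 0.25), all with an adjusted interaction p of at least 0.99.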

How the data were processed

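Deposited FPKM values for 32545 genes in 24 libraries were used. Per the labels, the authors made directional poly(A) libraries, and their processing notes name fastp, HISAT2, featureCounts and build rn6, without versions. Every FPKM value corresponded to whole reads (tolerance 0.01 reads, 100% of values). Library totals of 12312878 to 15698596 reads limit the precision of genes with few reads.

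Values were analysed as log2(FPKM + 0.1), for genes with a mean of at least 0.5 FPKM over the libraries compared, with limma 3.58.1 (trend, R 4.3.3) over the libraries compared. This scale understates changes of low genes. Calls required an unadjusted p of at most 0.05 and a log2 fold change of at least 0.378 in size, after the study's 1.3-fold rule, with Benjamini-Hochberg values beside them. Single genes were also tested by exact two-sided permutation over 70 splits. Groups without overlap always give the smallest permutation p, so for genes named because of that gap it is no separate test. Labels call the libraries biological replicates, and libraries with the same number did not deviate together (same-number correlations of deviations -0.08 to 0.0048). The study's methods state more animals per group than the 4 libraries analysed here.

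Named genes were the 12 of smallest p per direction among called genes with at least 50 reads, an established symbol and groups without overlap, every called member of 33 gene lists, and 13 fixed markers. Some genes that the rule names are not reported here. A further 18 genes, named for contrast, were chosen after their values were seen. The members and lists were chosen with earlier results of these data known. Alternatives were other pseudocounts, filters, quantile normalization, limma-voom on recovered reads, all 16 injection libraries, a replicate block and left-out libraries. The code was tested on simulated data, and self-administration libraries entered only the comparison of that pair.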

Additional observations from a re-analysis of the deposited data

Results flagged for a closer look

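Within groups of 4 libraries, 25 of 216 sets of values of the genes examined held 1 library whose gap to the others was larger than Dixon's 95% critical share of the group's range, a rule that flags about 1 group in 20 by chance. The libraries recur. Saline-Saline replicate 4 stood above its group in matrix and contractile genes and 2 others, with Tagln at 24.9, Bgn at 14.0, Col3a1 at 10.7, Col1a1 at 8.93, Myh11 at 4.15, Gbx1 at 4.39 and Mustn1 at 3.61 FPKM. Saline-Saline replicate 1 stood high in Ttr (318 FPKM), Srebf1 (25.5 FPKM), Angptl4 (6.58 FPKM) and Lef1 (3.30 FPKM) and low in P2ry12 (8.52 FPKM) and Ankrd33b (2.78 FPKM). Saline-Heroin replicate 2 stood low in Egr1 (34.9 FPKM), Arc (7.48 FPKM), Dusp6 (4.61 FPKM) and Car4 (3.12 FPKM) and high in Sparc (479 FPKM) and Sgk1 (96.8 FPKM).

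Other libraries were set apart in 1 or a few genes. Saline-Saline replicate 3 held 14.1 FPKM of Lhx6, and Saline-Saline replicate 2 held 14.2 FPKM of Aif1. Saline-Heroin replicate 3 held 15.7 FPKM of Hspb1 and 1.05 FPKM of RT1-T24-4, Saline-Heroin replicate 1 held 7.38 FPKM of Oprk1, and Saline-Heroin replicate 4 held 16.9 FPKM of Slco1c1. No gene described had an adjusted interaction p under 0.05 between rats with and without LPS history. An unadjusted limma interaction p of at most 0.05 was found in 17 of 108, and one under 0.05 in 607 of 15113 tested genes. The 2 counts cannot be compared, because 77 of the 108 were chosen as called in a comparison that is part of the interaction term.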

How the results depend on the processing

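Of the 77 called genes that the naming rule gave, none changed direction under any of 18 alternatives. The same held for all of the 465 calls that could be tested. These fits reuse the libraries in which the genes were chosen, so an unchanged direction adds little. Their calls held for 69 to 77 of 77 genes under other pseudocounts, filters, normalization, limma-voom, all 16 libraries or a replicate block, and for 49 to 64 when 1 library was left out. The count of 465 calls (212 higher, 253 lower) ranged from 366 without Saline-Saline replicate 1 to 727 without Saline-Heroin replicate 2, higher genes from 161 to 333 and lower genes from 190 to 394. Without Saline-Saline replicate 4, 329 genes were higher and 235 lower. The 2 alternatives chosen after seeing the data left out libraries with markers of neighbouring tissue: without Saline-Saline replicate 1 and Saline-Heroin replicate 2 there were 602 calls, and without Saline-Saline replicate 3 as well 348 genes were higher, of 654 calls. Without the filter on low values 383 genes were lower, and 5 had an adjusted limma p under 0.05. The cause of these shifts was not tested. The replicate block gave 440 calls, 349 of them among the 465. Same-number correlations were -0.08, -0.07, -0.07 and 0.0048, so libraries with the same number did not deviate together. These values cannot show whether such libraries were handled together. Genes with few reads are limited by depth, and 4 libraries a group limit all others.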
